A study of Homo sapiens with 24 samples.

Results

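A pair of drug combinations that share one inhibitor were set against each other in AGS, a wild-type human cell line from ATCC that was established from a gastric adenocarcinoma. Of the 24 libraries of the series, 8 belong to this comparison, picked by the treatment named in their titles: 4 of cells given PI103+PD0325901 and 4 of cells given PI103+(5Z)-7-oxozeaenol, called PI103+oxozeaenol from here on. Cells were grown in Ham's F12 medium with fetal calf serum and were harvested after 24 h, and each library measures polyadenylated RNA by stranded sequencing. PI103 stood at 0.35 µM in both combinations, beside PD0325901 at 0.0175 µM in one and oxozeaenol at 0.25 µM in the other, which is 50% of the concentration each drug had alone (0.7, 0.035 and 0.5 µM). The partner drugs therefore differed in molar concentration as well as in kind. Libraries of control cells, PI103 alone, PD0325901 alone and oxozeaenol alone, 4 of each, enter below where a level needs a reference, and the labels do not say whether the control cells received solvent. The libraries of each group are numbered 1 to 4, and the labels call this number a batch. They do not say whether the 4 came from separate cultures, so the p-values measure the spread between these libraries.

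PI103 inhibits class I phosphoinositide 3-kinases (PI3K) and mTOR. PD0325901 inhibits MEK1 and MEK2, the kinases that activate ERK, while oxozeaenol inhibits TAK1 (MAP3K7), a kinase upstream of NF-kB, JNK and p38. ERK drives transcription of immediate early genes, of ETS and AP-1 transcription factors, of cyclin D1, and of phosphatases and adaptors that damp the pathway in return. Cyclin D1 and its kinases release E2F transcription factors, which switch on the genes of DNA replication at the start of S phase.

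The 8 libraries held between 4.82e+07 and 7.77e+07 counts in genes and detected between 16026 and 16556 genes each. Levels are given as CPM, the share of the scaled library's counts that fell on a gene brought to a common library size, always in the order of replicates 1 to 4, and differences as log2 of PI103+PD0325901 over PI103+oxozeaenol, with the standard error (SE) of the fit. A gene is described as higher or lower only where edgeR's quasi-likelihood test gave a Benjamini-Hochberg adjusted p under 0.05 over all 13947 genes tested. The library of PI103+PD0325901 replicate 2 stood apart: on the first principal component, which held 55.6% of the variance, it lay at 55.2 while the other 3 of its group lay between 18.0 and 20.5 and the PI103+oxozeaenol libraries between -33.6 and -24.1. In PI103+oxozeaenol replicate 2, genes of the amino acid stress response were higher than in the other 3 libraries of its group. PI103+oxozeaenol replicate 4 lay apart on the second component (12.9% of the variance), at 30.4 against -15.6 to -7.49 for the others of its group, and reads outside any gene made up 8.50% of it, against 6.03% to 6.35% in those 3 and 7.04% to 7.82% with PI103+PD0325901. Without it 3867 genes differed, and the part of this share in the results was not tested. Of the 221 genes named here, 220 were matched in the GENCODE annotation (release 29), all but LOC153469. ADC, which stands for AZIN2 in its list, was matched to GADL1, so its own overlaps were not looked up. Among the matched genes, 8 overlap a neighbour of the same strand over at least 10% of their exonic bases, and 29 overlap one of the opposite strand to that extent. The former are AXIN2, CFB, CYMP, EFNA3, IRF9, MXD3, PIK3R3 and RRM2, and the latter include TYMS, BCL2L1, DUSP6, IDH3A, PIK3CA and MTHFD2. Whether counting used the strand is not given in the sources used here. Which reads of such pairs were counted to a gene, and which fell among the ambiguous reads, is therefore not known. Cell type markers, unlike the other levels, are given in CPM of the library before scaling. The 7 epithelial markers summed to 5634 to 7475 CPM with PI103+PD0325901 and to 5345 to 6445 CPM with PI103+oxozeaenol, and the 5 leukocyte, 4 endothelial and 3 erythroid markers each summed to under 3 CPM in every one of the 8 libraries, with CDH5 at 0. The 5 fibroblast markers summed to 22.4 to 27.5 CPM against 9.20 to 11.1 CPM, nearly all of it COL1A1 (21.3 to 26.1 against 8.76 to 10.7 CPM), with DCN at 0. COL1A2 lay at 0 to 0.0133 CPM with PI103+PD0325901 and at 0 with PI103+oxozeaenol. The part of these markers in the results was not tested, and in such bulk libraries fewer cells of a type and less RNA per cell cannot be told apart.

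Between the combinations, 4170 of 13947 genes differed (29.9%). Of these, 1994 were higher with PI103+PD0325901 (14.3% of the genes tested) and 2176 were higher with PI103+oxozeaenol (15.6%), and the median difference over all genes was 0.00 on the log2 scale. Most differences were small: the median size was 0.50 log2 units among the genes that differed, and 592 genes (4.24%) differed by at least 1 log2 unit, 435 of them higher with PI103+PD0325901 (3.12%) and 157 higher with PI103+oxozeaenol (1.13%). In 4095 of the 4170 genes the sign was the same in all 4 batches, and in 3617 the values of the 2 groups did not overlap, as they also did not in 4541 (32.6%) of all genes. Without PI103+PD0325901 replicate 2 the count fell to 2702 genes, and without replicate 2 of both combinations to 1948, of which 352 differed by at least 1 log2 unit. No gene counted in both the full and either reduced set changed sign. A test against a minimum change of 1 log2 unit called 104 genes, 74 of them higher with PI103+PD0325901.

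**Figure D1:**
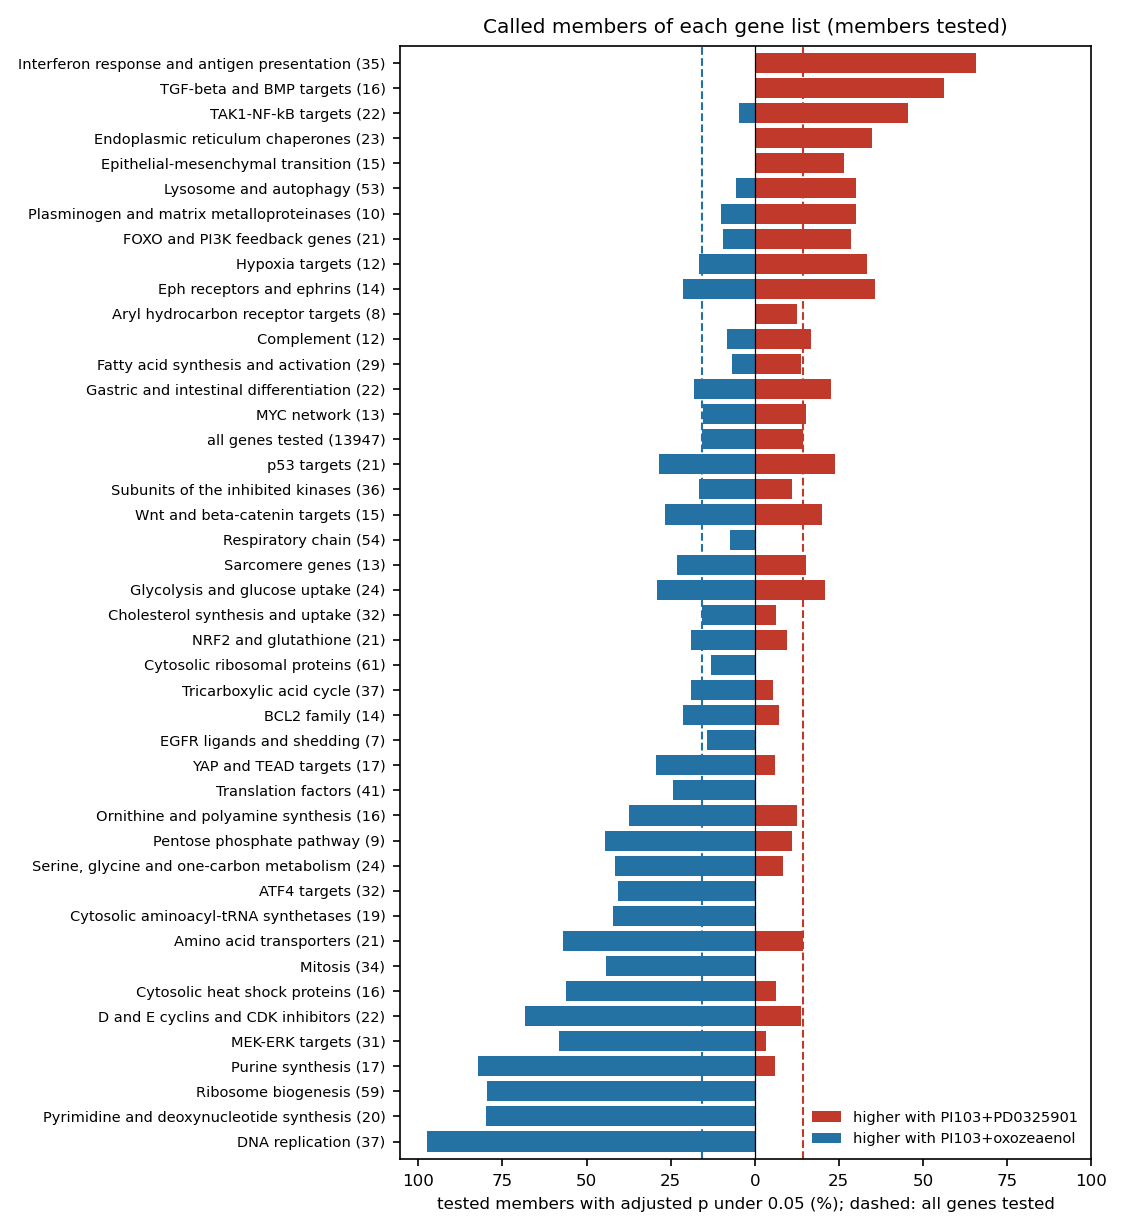
Share of the tested members of each gene list (number tested in parentheses) that were higher with PI103+PD0325901 (red, right) or with PI103+oxozeaenol (blue, left) at an adjusted p under 0.05, in percent. Dashed lines mark the shares over all 13947 genes, 14.3% and 15.6%: DNA replication, purine synthesis and pyrimidine synthesis lie farthest to the left, and interferon response and TGF-beta targets farthest to the right.

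Target genes of MEK and ERK that differed were lower with PI103+PD0325901 than with PI103+oxozeaenol, with 1 exception. Of the 31 members tested, 18 were lower and 1, PLAUR, was higher, with a median of -0.63 against 0.00 over all genes, and 15 of the 18 kept their call without replicate 2 of both combinations. The largest differences fell on the ETS factors that ERK induces and on inhibitors of the pathway itself. ETV4, a transcription factor of the PEA3 group, stood at 1.53, 0.101, 1.04 and 0.808 CPM with PI103+PD0325901 and at 34.8, 31, 25.7 and 23.9 CPM with PI103+oxozeaenol, a difference of -4.996 (SE 0.42, edgeR adjusted p = 2.9e-08). All 4 libraries of the first group lay below all 4 of the second, and replicate 2 was the lowest. ETV5, of the same group, differed by -3.09 (SE 0.48), with 0.941 to 9.47 CPM against 47.3 to 53.9 CPM. The sparsely expressed ETV1 showed the same order at 0.0672 to 0.188 against 0.341 to 0.825 CPM.

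Among the pathway's own inhibitors, DUSP6, the cytosolic ERK phosphatase, stood at 4.63, 1.63, 4.31 and 5.01 CPM with PI103+PD0325901 and 36, 40.3, 33.1 and 30.4 CPM with PI103+oxozeaenol (-3.17, SE 0.30, edgeR adjusted p = 1.1e-07). Its groups did not overlap, and both lay below the control mean of 132 ± 13.4 CPM (SD, n = 4). SPRY4, which restrains receptor signalling to RAS, had 3.59, 0.79, 3.01 and 3.56 CPM against 16.4, 14.7, 15.4 and 17.9 CPM (-2.55, SE 0.28), and SPRED1, which recruits the RAS inhibitor neurofibromin, had 20.3, 6.45, 16.4 and 20.9 against 60.7, 68.4, 58.2 and 56.7 CPM (-1.93, SE 0.26). In each of these genes replicate 2 was the lowest library of the PI103+PD0325901 group. Smaller differences were found for the nuclear phosphatase DUSP4 (-1.06), for SPRED2 (-0.63) and for SPRY1 (-0.45), whereas SPRY2, at 20.1 to 34.4 CPM against 27 to 31.1 CPM, did not pass the test (0.04, edgeR adjusted p = 0.86). SPRY1 and SPRED2 lost their call without replicate 2 of both combinations (edgeR adjusted p = 0.066 and 0.064).

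Some immediate early genes differed between the combinations and others did not pass the test. EGR1, a zinc finger factor induced within minutes of growth factor stimulation, stood at 2.29, 0.806, 1.75 and 1.43 CPM with PI103+PD0325901 against 6.21, 10.9, 5.68 and 6.97 CPM with PI103+oxozeaenol (-2.21, SE 0.50, edgeR adjusted p = 0.0022), far below the control mean of 201 ± 50.4 CPM (SD, n = 4) in all 8 libraries. The AP-1 subunits FOS (-1.28, 3.01 to 5.5 against 9.27 to 11.7 CPM) and FOSL1 (-1.81, 1.53 to 4.71 against 10.6 to 12.8 CPM), the small MAF protein MAFF (-1.63) and PHLDA1 (-1.39) were also lower. By contrast, IER2 (-0.15), JUNB (0.09), DUSP1, a phosphatase of p38 and JNK (0.07), and the AP-1 subunit FOSL2 (-0.17) did not pass the test. The cytokine LIF (-0.19) did not pass it either. IER3 had separate groups, at 8.77 to 10.7 against 10.8 to 16.2 CPM and a control mean of 193 ± 41.3 CPM (SD, n = 4), without passing the test (-0.39, edgeR adjusted p = 0.17), which it did in a fit of the 8 libraries alone (0.041).

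**Figure D2:**
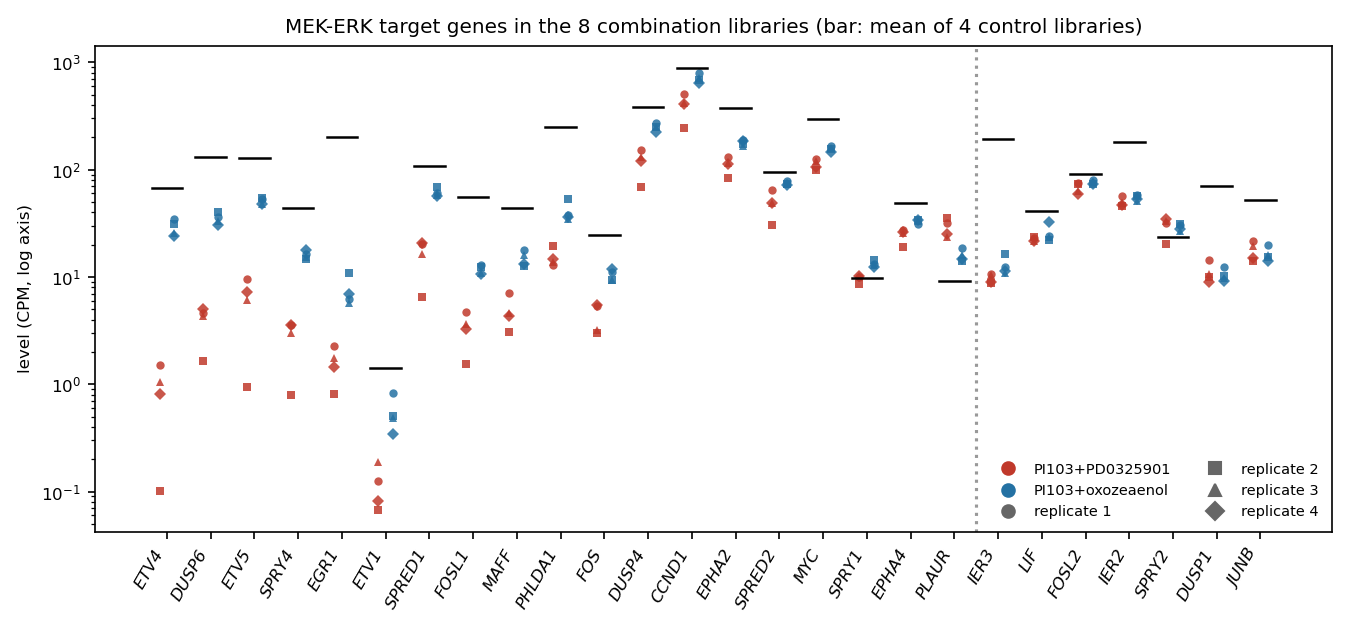
Level in CPM (log axis) of the 19 MEK-ERK targets that differed, ordered by the size of the difference, and, right of the dotted line, of 7 that did not. Each point is a library (red PI103+PD0325901, blue PI103+oxozeaenol, marker shape the replicate number), and the black bar is the mean of the 4 control libraries. Points of the 2 groups are separate for all 19 genes, replicate 2 of PI103+PD0325901 is often the lowest, and PLAUR is the only one of the 19 with the red points on top.

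To show what regulatory sequence these genes carry, the window from 250 bases before to 50 bases after the annotated start was searched on both strands for the CArG box, which serum response factor binds, for the cyclic AMP element TGACGTCA, the AP-1 site TGANTCA, the ETS site CCGGAAGT and the E-box CACGTG. Of the 18 targets lower with PI103+PD0325901, 12 had a sequence in the RefSeq promoter table (GRCh38.p14). A CArG box was found in 1 of the 12, EGR1, and in 1.29% of all 27305 promoters. The cyclic AMP element was found in 2 of 12 (EPHA2 and MAFF; 1.98% of all), the E-box in 1 (MAFF; 7.43% of all), and the AP-1 and ETS sites in none of these windows (7.76% and 4.44% of all). The EGR1 window, chr5:138465229-138465528 on the plus strand, is shown with its CArG boxes in capitals.
EGR1: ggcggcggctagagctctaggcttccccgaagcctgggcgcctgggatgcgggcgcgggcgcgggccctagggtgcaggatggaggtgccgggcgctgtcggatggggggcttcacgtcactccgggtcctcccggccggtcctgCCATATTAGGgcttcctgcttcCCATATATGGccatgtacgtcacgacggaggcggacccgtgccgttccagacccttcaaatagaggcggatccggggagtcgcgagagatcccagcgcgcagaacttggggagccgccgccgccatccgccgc

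Cyclin D1 (CCND1), the ERK-induced partner of CDK4 and CDK6, stood at 511, 245, 420.0 and 407 CPM with PI103+PD0325901 and 795, 683, 716 and 647 CPM with PI103+oxozeaenol (-0.84, SE 0.16, edgeR adjusted p = 0.00026). MYC, the transcription factor of growth genes, stood at 126, 98.3, 119 and 105 against 166, 154, 159 and 145 CPM (-0.48, SE 0.11). Neither gene's groups overlapped. The receptor tyrosine kinases EPHA2 (-0.70) and EPHA4 (-0.43, edgeR adjusted p = 0.057 without replicate 2 of both) were lower as well. PLAUR, the urokinase receptor and the one target that went the other way, stood at 32.1, 35.1, 23.3 and 24.9 CPM against 18.5, 14, 16.1 and 14.8 CPM (0.86, SE 0.14). Its lowest PI103+PD0325901 library exceeded its highest PI103+oxozeaenol library, and the control mean was 9.15 ± 1.66 CPM (SD, n = 4).

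Of the ligands of the EGF receptor and the proteases that shed them, 1 of 7 members tested was lower with PI103+PD0325901. That share of 14.3% is near the 15.6% of all genes that were lower. The lower member was TGFA, with a small difference. TGFA stood at 24.1, 24.2, 22.7 and 20.7 CPM against 30.2, 29.6, 32.7 and 29.4 CPM (-0.41, SE 0.09, edgeR adjusted p = 0.00075). HBEGF, another ligand, had overlapping ranges of 13.3 to 16.1 and 12.9 to 14.4 CPM. The sheddases ADAM10 (0.28, edgeR adjusted p = 0.063) and ADAM17 (0.19, 0.086) did not pass the test, but did so when the batch number was added to the model (0.037 and 0.041), ADAM10 also in a fit of the 8 libraries alone (0.021).

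Other genes with the largest differences in this direction included receptors and adhesion proteins. TLR4, the receptor for bacterial lipopolysaccharide, stood at 5.28, 1.13, 4.41 and 4.3 CPM with PI103+PD0325901 and 31.4, 34, 28.9 and 29.8 CPM with PI103+oxozeaenol (-3.03, SE 0.31, edgeR adjusted p = 2.7e-07). TNS4, a tensin that binds integrin tails and MET, stood at 63.4, 15, 47.8 and 48.4 against 283, 289.8, 266 and 255 CPM (-2.64, SE 0.36), and MET itself, the receptor of hepatocyte growth factor, at 88.4, 48.9, 62.6 and 72.5 against 168, 150.2, 149 and 148 CPM (-1.18, SE 0.14). JAG1, a ligand of Notch receptors, stood at 19.4, 10.2, 18 and 19 against 74, 62, 64.2 and 77.8 CPM (-2.06, SE 0.17). In all 4 genes the groups were far apart and replicate 2 gave the lowest PI103+PD0325901 value. The phosphatase UBASH3B (-2.84), the lectin SIGLEC6 (-1.96) and C1orf21 (-1.86) complete the 12 genes with the largest differences in this direction among genes with a mean of at least 5 CPM in one or both combinations and the same sign in all 4 batches, of which 6 are members of the MEK-ERK list.

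The NF-kB target genes that TAK1 can induce were, where they differed, mostly higher with the combination that lacks the TAK1 inhibitor. Of 22 members tested, 10 were higher with PI103+PD0325901 and 1 was lower, with a median of 0.33. Without PI103+PD0325901 replicate 2 the count of higher members was 5. RELB, a subunit of the non-canonical NF-kB dimer, stood at 9.85, 12.3, 6.12 and 6.2 CPM with PI103+PD0325901 and 4.12, 3.11, 3.93 and 3.62 CPM with PI103+oxozeaenol (1.22, SE 0.22, edgeR adjusted p = 0.00021). Of the inhibitors of the pathway in the list, 3 were higher: NFKBIA (IkB-alpha) at 58.2, 57.9, 53.6 and 49.3 against 40.6, 37.9, 41.8 and 38.1 CPM (0.47, SE 0.08), the deubiquitinase CYLD at 15.8 to 25.2 against 11.2 to 12.7 CPM (0.76), and the ubiquitin-editing enzyme TNFAIP3 (A20) at 4.95 to 8.92 against 3.56 to 4.39 CPM (0.73). NFKBIB (-0.03) and NFKBIE (0.11), which like NFKBIA hold NF-kB in the cytoplasm, and TNIP1 (0.15), a partner of A20, did not pass the test. TNFAIP2 was higher by 0.71 and the interferon regulatory factor IRF1 by 0.44, and groups did not overlap in RELB, NFKBIA, CYLD, TNFAIP3, TNFAIP2 or IRF1. The calls of TNFAIP3, of the NF-kB subunit NFKB2 (0.38), of the ubiquitin ligases BIRC2 (0.32) and BIRC3 (0.62) and of the chemokine CXCL2 (0.59) were lost without PI103+PD0325901 replicate 2 (edgeR adjusted p from 0.058 to 0.22). The call of BIRC3 was also lost without PI103+PD0325901 replicate 1 or PI103+oxozeaenol replicate 2, 3 or 4, that of BIRC2 without PI103+oxozeaenol replicate 3, and that of NFKB2 without PI103+PD0325901 replicate 1 or PI103+oxozeaenol replicate 4 (edgeR adjusted p from 0.051 to 0.057). The call of CXCL2 was also lost without PI103+oxozeaenol replicate 1 or 2 (0.064 and 0.098) and in a fit of the 8 libraries alone (0.058). ICAM1, an adhesion molecule, was the 1 lower member, at 52.2, 46.7, 47.6 and 43.3 against 59.6, 56.6, 59.2 and 56.4 CPM (-0.29, SE 0.08).

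Among the 43 gene lists, DNA replication had the highest share of members that differed. Of 37 members tested, 36 were lower with PI103+PD0325901, against 15.6% of all genes, with differences between -1.01 and -0.61 and a median of -0.78. The same 36 genes were called in every fit with 1 library of these 8 left out and without replicate 2 of both combinations. MCM6, a subunit of the replicative helicase, stood at 162, 105, 156 and 148 CPM with PI103+PD0325901 and 279, 251, 268 and 239.6 CPM with PI103+oxozeaenol (-0.86, SE 0.11, edgeR adjusted p = 2.6e-06). CDC6, which loads that helicase at origins, stood at 133, 85.5, 132 and 128 against 239, 219.6, 226 and 206 CPM (-0.90, SE 0.11), and RFC2, a subunit of the clamp loader, at 52.3, 40.9, 53 and 49 against 92.1, 89.7, 89.1 and 75.9 CPM (-0.83, SE 0.11). All 3 had separate groups, with replicate 2 the lowest of the PI103+PD0325901 libraries and the other 3 close together. RPA3, the smallest subunit of the single-strand binding protein, was the 1 member that did not pass the test (-0.31, edgeR adjusted p = 0.34). POLD3, a subunit of polymerase delta, and the repair glycosylase UNG, chosen for their small p and not members of the list, differed in the same direction (-1.18 and -0.93).

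Against the control, which both combinations share, the same list stood mostly above it with PI103+oxozeaenol (median 0.60). With PI103+PD0325901 its members lay on both sides of control (median -0.09). With PI103+oxozeaenol, 28 of the 37 members were higher than control and none was lower, against 27.7% and 27.9% of all genes. With PI103+PD0325901, 2 were higher and 15 were lower, against 32.2% and 32.6% of all genes. MCM6, for example, had a control mean of 133 ± 17.8 CPM, 259 ± 17.6 CPM with PI103+oxozeaenol and 143 ± 25.9 CPM with PI103+PD0325901 (SD, n = 4 each), and 213 ± 13.4 CPM with PI103 alone.

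**Figure D3:**
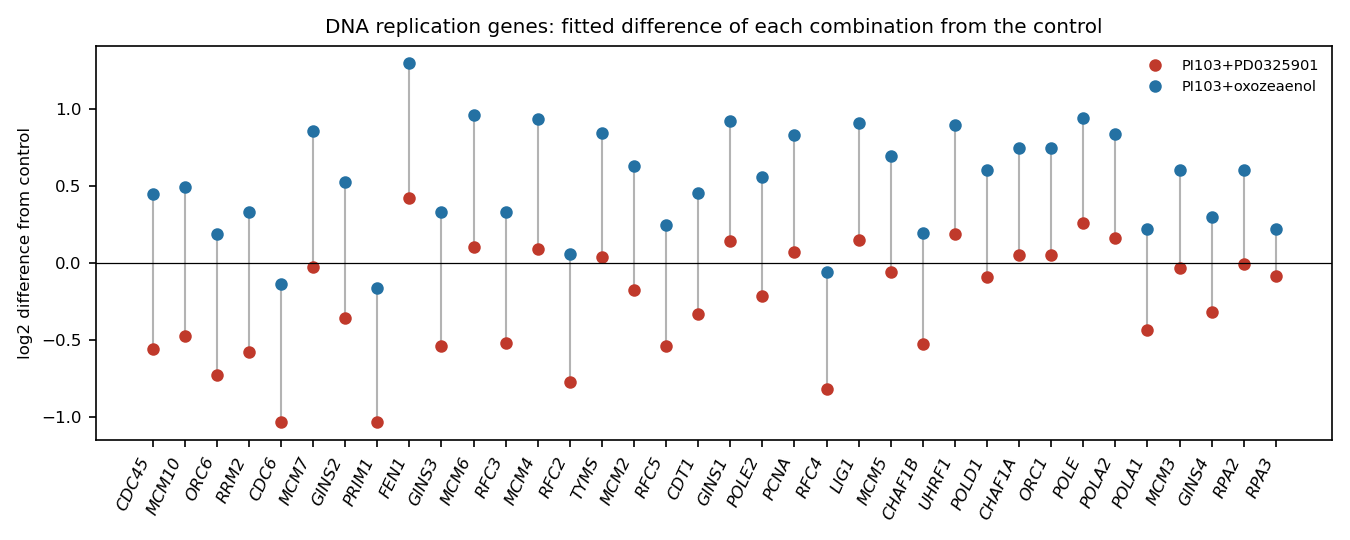
Fitted log2 difference from the 4 control libraries of 36 of the 37 DNA replication genes, with PI103+PD0325901 in red and PI103+oxozeaenol in blue, and the grey line joining the 2 values of a gene. Every red point lies below its blue point, and most blue points lie above 0 while red points lie on both sides of 0.

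Most of the promoters found for these genes hold a match to the site of E2F, the factors introduced above as switching on replication genes. Since 36 of the 37 members tested were lower, this share describes the list. A part of E2F in the difference was not tested. E2F sites were searched as TTTNNCGC on both strands in the same window of 300 bases, a motif chosen after the expression values were seen. Of the 36 lower members, 31 had a promoter sequence, and 20 of these held the motif (64.5%), against 6.90% of all 27305 promoters. None of the 12 MEK-ERK target promoters held it. The windows of MCM6 (chr2:135876394-135876693, minus strand) and CDC6 (chr17:40287629-40287928, plus strand) are printed with matches in capitals. In MCM6 the motif occurs on both strands at 2 places, so that overlapping matches form 1 run of 12 bases each time.
MCM6: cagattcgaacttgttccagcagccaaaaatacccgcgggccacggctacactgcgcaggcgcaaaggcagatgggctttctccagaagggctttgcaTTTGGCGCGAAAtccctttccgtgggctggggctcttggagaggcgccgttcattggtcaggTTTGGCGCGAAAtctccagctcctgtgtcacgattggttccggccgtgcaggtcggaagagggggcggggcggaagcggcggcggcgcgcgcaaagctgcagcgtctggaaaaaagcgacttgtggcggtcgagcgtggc
CDC6: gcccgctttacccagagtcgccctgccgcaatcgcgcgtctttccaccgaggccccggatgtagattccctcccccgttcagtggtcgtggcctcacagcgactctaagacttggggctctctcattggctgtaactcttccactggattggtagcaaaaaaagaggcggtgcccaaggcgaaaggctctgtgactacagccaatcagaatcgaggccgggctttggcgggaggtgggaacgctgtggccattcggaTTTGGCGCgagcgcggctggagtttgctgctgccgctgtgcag

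Most regulators of the G1 to S transition differed in the same direction as the replication genes. Of 22 cyclins, CDK inhibitors and E2F or RB family genes tested, 15 were lower with PI103+PD0325901 and 3 were higher. E2F1 stood at 36.7, 25.3, 33.5 and 39.2 CPM with PI103+PD0325901 and 62.7, 48.7, 59.1 and 72 CPM with PI103+oxozeaenol (-0.85, SE 0.14, edgeR adjusted p = 8.2e-05). CCNE1, cyclin E1, differed by -0.62 (52.5 to 64.4 against 86.5 to 97.9 CPM) and CDC25A, the phosphatase that activates CDK2, by -0.89 (25.8 to 37.4 against 59.1 to 64.5 CPM). Groups did not overlap in these 3 genes. The 3 higher members are inhibitors of the cycle. Among the other inhibitors in the list, named after their values were seen, the RB relative RBL1 (p107, -0.75), CDKN2D (p19, -0.52) and CDKN1B (p27, -0.24) were lower, and CDKN1A (p21, -0.02) and CDKN2C (p18, -0.19) did not pass the test. The call of CDKN2D was lost without PI103+PD0325901 replicate 2 (edgeR adjusted p = 0.070), PI103+oxozeaenol replicate 1 (0.056) or replicate 2 of both (0.067). The call of CDKN1B was lost without PI103+PD0325901 replicate 2 (edgeR adjusted p = 0.11), without PI103+oxozeaenol replicate 1 (0.064) or 2 (0.071) and without the filter on low counts (0.075). CDKN2B, the CDK4 and CDK6 inhibitor p15, stood at 88.2, 126, 83.2 and 88.6 CPM against 25.6, 30.6, 26.2 and 29.96 CPM (1.78, SE 0.13, edgeR adjusted p = 4.9e-10), above the control mean of 76.2 ± 3.59 CPM (SD, n = 4) in every PI103+PD0325901 library and below it in every PI103+oxozeaenol library. CDKN1C, the inhibitor p57, stood at 8.03, 13.6, 8.13 and 7.72 against 3.47, 2.14, 3.61 and 3.22 CPM (1.59, SE 0.27), and RBL2 (p130), another RB relative, was higher by 0.30. The call of RBL2 was lost in 3 fits with libraries left out (edgeR adjusted p = 0.070 without PI103+PD0325901 replicate 1, 0.077 without PI103+oxozeaenol replicate 2 and 0.11 without replicate 2 of both). CDK6 (-0.08) and RB1 (-0.26) did not pass the test, the latter except in a fit of the 8 libraries alone (edgeR adjusted p = 0.029).

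Genes of mitosis differed less evenly than those of replication. Of 34 tested, 15 were lower with PI103+PD0325901 and none was higher, but the count was 6 without PI103+PD0325901 replicate 2, 7 without PI103+oxozeaenol replicate 2 and 2 without both, 8 in a fit of the 8 libraries alone and 6 without the filter on low counts, while 22 were lower with the batch number in the model. CDK1, the mitotic kinase, stood at 228, 128, 298 and 330.2 CPM with PI103+PD0325901 and 387, 438, 403 and 422 CPM with PI103+oxozeaenol (-0.75, SE 0.20, edgeR adjusted p = 0.0075), and at 0.057 its adjusted p passed the threshold no longer without replicate 2 of both. ECT2 (-0.86) and the kinesin KIF23 (-0.62, -0.35 without replicate 2 of both), which act in cytokinesis, were also lower. MKI67 (Ki-67) stood at 302, 121, 312 and 273 against 343, 350.4, 364 and 352 CPM (-0.48, edgeR adjusted p = 0.07) and TOP2A (topoisomerase II alpha) at 633, 248, 686 and 585 against 739.7, 919, 781 and 599 CPM (-0.50, 0.093). With the batch number in the model both passed (0.020 and 0.047), as MKI67 also did with DESeq2 (0.039) and without PI103+PD0325901 replicate 1 (0.044) or 3 (0.038), and TOP2A without replicate 3 (0.048). In all 5 genes the value of PI103+PD0325901 replicate 2 lay under the other 3 of its group. The list's median in that library was -1.19 log2 units from the mean of the 8 libraries, where the other 3 PI103+PD0325901 libraries had -0.06 to 0.09 and the PI103+oxozeaenol libraries 0.15 to 0.47.

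**Figure D4:**
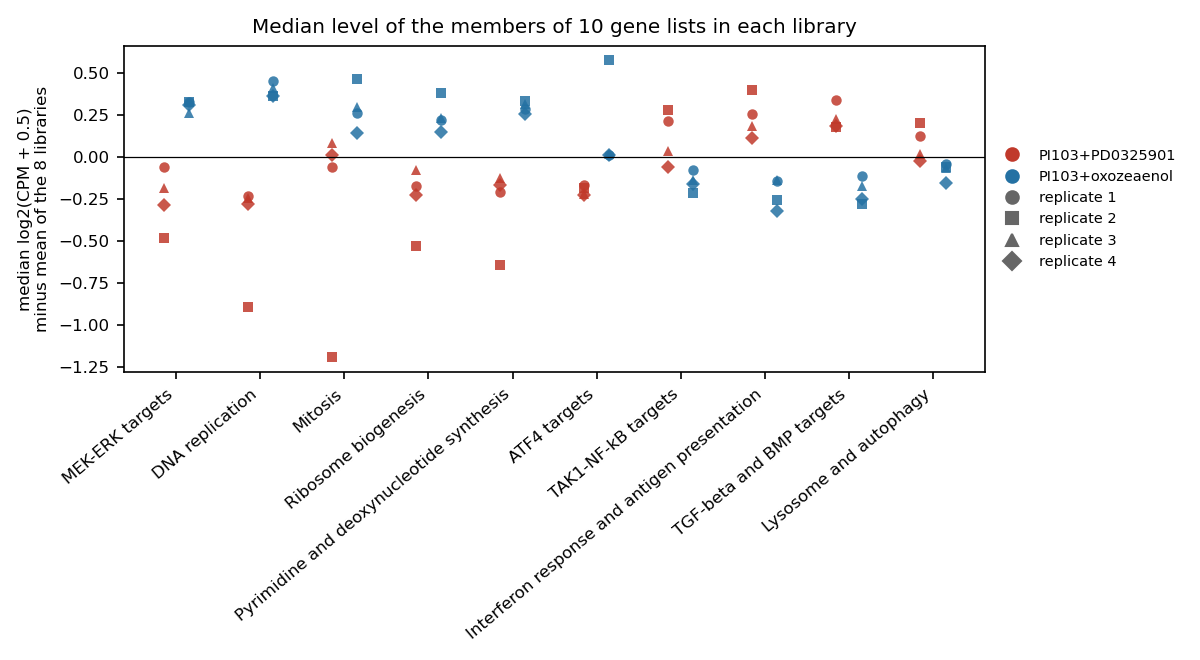
Median over the members of 10 gene lists of log2(CPM + 0.5), minus the gene's mean over the 8 libraries, in each library (red PI103+PD0325901, blue PI103+oxozeaenol, marker shape the replicate number). Replicate 2 of PI103+PD0325901 is lowest for replication (-0.89) and mitosis (-1.19), and replicate 2 of PI103+oxozeaenol is highest for ATF4 targets (0.58), while for interferon and TGF-beta targets all red points lie above all blue ones.

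Most genes that build ribosomes were lower with PI103+PD0325901. Of 59 ribosome biogenesis genes tested, 47 were lower and none was higher, with a median of -0.52. The count was 36 without PI103+PD0325901 replicate 2 and 22 without replicate 2 of both combinations, with medians between -0.55 and -0.43 over the fits that leave out 1 library. NOP56, a core protein of the box C/D small nucleolar particles, stood at 258, 185, 282 and 292 CPM with PI103+PD0325901 and 429.6, 469.9, 441 and 463 CPM with PI103+oxozeaenol (-0.83, SE 0.13, edgeR adjusted p = 3.6e-05). NOLC1, a nucleolar chaperone of those particles, differed by -0.73 and RRP1 by -0.72, both without overlap of the groups. DKC1, the pseudouridine synthase dyskerin (-0.22), and the polymerase subunit POLR1D (-0.20) did not pass the test, although DKC1 did with the batch number in the model (edgeR adjusted p = 0.033). Of the 61 ribosomal proteins themselves, 8 were lower with PI103+PD0325901 (13.1%, below the 15.6% of all genes that were lower) and none was higher. RPL6 was among the lower at 882, 839.6, 974 and 957 against 1154, 1162, 1171 and 1124 CPM (-0.34, edgeR adjusted p = 0.059 without replicate 2 of both). That count of 8 was 2, 1, 1, 3, 2 and 5 without, in turn, PI103+PD0325901 replicates 1 and 2 and PI103+oxozeaenol replicates 1, 2, 3 and 4, 0 without replicate 2 of both, 1 without the filter on low counts, 16 in a fit of the 8 libraries alone and 17 with the batch number in the model. Of 41 translation factors, 10 were lower and none was higher (24.4%, against 15.6% of all genes that were lower and 29.9% that differed). The count was 5 without PI103+PD0325901 replicate 2, 6 without PI103+oxozeaenol replicate 2, 1 without both and 16 with the batch number in the model. Among the 10 were EIF4EBP1, the mTOR-regulated inhibitor of cap binding (-0.88, edgeR adjusted p = 0.087 without replicate 2 of both), and EIF2S1, the eIF2 alpha subunit (-0.40). Of 13 genes of the MYC network, 2 were higher and 2 lower (30.8%, against 29.9% of all genes). The antagonists MXD1, at 29.1, 36, 28.9 and 29 against 17.9, 14.4, 16.4 and 18.2 CPM (0.88), and MXD4, at 39.5, 73.6, 35.2 and 38.2 against 24.1, 18.1, 23.2 and 25.5 CPM (1.04, 0.63 without replicate 2 of both), were higher with PI103+PD0325901 with no overlap, and MYC and the MAX relative MLX (-0.37) were lower. The other antagonists in the list, named after their values were seen, MXD3 (-0.33), MXI1 (0.18) and MNT (0.21), did not pass the test.

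The synthesis of nucleotides and polyamines followed the same direction. In purine synthesis 14 of 17 genes tested were lower with PI103+PD0325901 (9 without replicate 2 of both) and 1 was higher, with a median of -0.46, and in pyrimidine and deoxynucleotide synthesis 16 of 20 were lower and none was higher, with a median of -0.56. PPAT, which catalyses the committed step of purine synthesis, stood at 42.5, 29, 43.6 and 43.2 CPM with PI103+PD0325901 and 70.9, 77.3, 67.9 and 61.8 CPM with PI103+oxozeaenol (-0.81, SE 0.12, edgeR adjusted p = 3.2e-05). PAICS (-0.65) and GART (-0.58), which act further along the pathway, were lower without overlap. ADSSL1, a sparsely expressed form of adenylosuccinate synthase, was the 1 higher gene (1.94 to 2.52 against 1.27 to 1.62 CPM, 0.66), and its call was lost without replicate 2 of both (edgeR adjusted p = 0.069). RRM2, the S phase subunit of ribonucleotide reductase, stood at 213, 119, 213 and 215 against 369, 375, 346 and 335 CPM (-0.91, SE 0.14). CTP synthase (CTPS, -0.76), UMPS, which makes uridine monophosphate (-0.55), and thymidylate synthase (TYMS, -0.81) were lower too, none with overlapping groups.

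ODC1, the rate-limiting enzyme of polyamine synthesis, had the smallest adjusted p among the genes with a mean of at least 50 CPM that were lower with PI103+PD0325901. It stood at 177, 142, 180.2 and 167 CPM with PI103+PD0325901 and 297, 332, 300.2 and 302 CPM with PI103+oxozeaenol (-0.89, SE 0.09, edgeR adjusted p = 6.8e-08). Control cells had 391 ± 23.5 CPM and PI103 alone 204 ± 16.1 CPM (SD, n = 4 each). AMD1, which supplies the aminopropyl donor, was also lower (204 to 295 against 383 to 431 CPM, -0.65), whereas OAT, which degrades ornithine, was higher (333 to 551 against 303 to 338 CPM, 0.41) with overlapping groups, and its call was lost without PI103+PD0325901 replicate 2 (edgeR adjusted p = 0.093). OAZ1, the antizyme that inactivates ODC, did not pass the test (-0.16). Of the 16 genes of this list, 6 were lower (3 without replicate 2 of both) and 2, OAT and ADC (0.67), were higher (none without PI103+PD0325901 replicate 2, 1 without PI103+oxozeaenol replicate 2 or 3).

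Amino acid genes controlled by ATF4, the transcription factor of the integrated stress response, were lower with PI103+PD0325901 where they differed. Of 32 ATF4 targets, 13 were lower and none was higher, with a median of -0.53, and without PI103+oxozeaenol replicate 2 the count was 9 and the median -0.26. Without replicate 2 of both the count was 8. SLC7A11, the cystine transporter, stood at 4.66, 6.62, 5.22 and 5.64 CPM with PI103+PD0325901 and 7.62, 51.3, 9.71 and 10.02 CPM with PI103+oxozeaenol (-1.83, SE 0.48, edgeR adjusted p = 0.007), and its highest value by far was in PI103+oxozeaenol replicate 2, without which the difference was -0.72 with an adjusted p of 0.051. MTHFD2, the mitochondrial folate enzyme, stood at 92, 90.03, 104 and 105 against 158, 278, 168 and 158 CPM (-0.96, SE 0.18), with a control mean of 1084 ± 113 CPM (SD, n = 4). SLC1A4, a transporter of neutral amino acids, stood at 12.5, 9.86, 11.4 and 10.1 against 22.9, 30.8, 19.4 and 20.4 CPM (-1.09, SE 0.18). Both kept their call in every fit with libraries left out. TRIB3 and INHBE, abundant in control cells at 31.1 ± 8.5 and 57.7 ± 7.41 CPM (SD, n = 4), were under 0.3 CPM in all 8 libraries, apart from INHBE at 2.32 CPM in PI103+oxozeaenol replicate 2, and neither passed the test. SLC3A2, the heavy chain of several amino acid exchangers, did not pass it either, at 202 to 236 against 209 to 268 CPM (-0.08). DESeq2 did call INHBE (adjusted p = 0.026).

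Of 21 amino acid transporters, 12 were lower with PI103+PD0325901 and 3 were higher. The glutamine carriers SLC38A2 (113 to 159 against 213 to 279.6 CPM, -0.72) and SLC38A1 (112 to 154 against 206 to 263 CPM, -0.67) were among the lower, and SLC7A7, a light chain that exports cationic amino acids, was higher at 433, 540.5, 413 and 403 against 314, 309, 302 and 285 CPM (0.56, SE 0.10). Among 24 genes of serine, glycine and one-carbon metabolism 10 were lower, MTHFD1 among them (-0.67), and 2 were higher. GLDC, the glycine decarboxylase, was among the higher at 23.3, 50.7, 25.5 and 35 CPM with PI103+PD0325901 and 14.9, 13.7, 16.7 and 19.9 CPM with PI103+oxozeaenol (1.04, SE 0.20, edgeR adjusted p = 0.00053). Of 19 cytosolic aminoacyl-tRNA synthetases 8 were lower and none was higher, with FARSB at 23.8 to 38.9 against 55.4 to 66.2 CPM (-0.81) and YARS at 63.6, 58.5, 68.1 and 64.8 against 83.6, 143, 87.2 and 84.4 CPM (-0.64). YARS was highest in PI103+oxozeaenol replicate 2, without which its difference was -0.42, and without replicate 2 of both its adjusted p was 0.062. The count of 8 synthetases was 5 without PI103+PD0325901 replicate 2, 3 without PI103+oxozeaenol replicate 2 and 1 without both.

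The title of the series names metabolism as its subject. Central carbon metabolism differed at single steps, in both directions. In glycolysis and glucose uptake 7 of 24 genes were lower with PI103+PD0325901 and 5 were higher. The 7 became 4 without PI103+PD0325901 replicate 2 or PI103+oxozeaenol replicate 1 or 2, and the 5 became 3 without PI103+PD0325901 replicate 1 or 3 or PI103+oxozeaenol replicate 3 or 4. SLC2A1, the glucose transporter GLUT1, stood at 439, 303, 347 and 359 CPM with PI103+PD0325901 and 654, 639, 559 and 549 CPM with PI103+oxozeaenol (-0.73, SE 0.15, edgeR adjusted p = 0.00055), and HK2, the inducible hexokinase, at 14.8, 9.83, 14.9 and 13.3 against 24.7, 34.6, 28.1 and 26.6 CPM (-1.11, SE 0.18). HK1, another hexokinase, went the opposite way at 5.07, 8.03, 6.35 and 3.56 against 2.32, 2.94, 3.75 and 1.59 CPM (1.12, SE 0.25), with groups that overlapped. ENO1 (enolase) was lower (-0.54, edgeR adjusted p = 0.054 without replicate 2 of both) and PFKFB4, which sets the level of fructose 2,6-bisphosphate, was higher (0.62, 0.067 without replicate 2 of both), while GAPDH (-0.11) and PKM2 (-0.22) did not pass the test, PKM2 except without PI103+oxozeaenol replicate 4 (edgeR adjusted p = 0.035). In the pentose phosphate pathway 4 of 9 genes were lower (2 without replicate 2 of both), including RPIA, the ribose phosphate isomerase (-0.79), and the phosphoribosyl pyrophosphate synthases PRPS1 (-0.43) and PRPS2 (-0.46, edgeR adjusted p = 0.053 without replicate 2 of both). In the same list 1 gene was higher, a call lost in most fits that left out 1 library.

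The mitochondrial lists lay near or below the share of all genes. In the tricarboxylic acid cycle 7 of 37 genes were lower with PI103+PD0325901 and 2 were higher, and in the respiratory chain 4 of 54 were lower and none was higher (7.4%, against 29.9% of all genes). Both counts of lower genes moved with single libraries: the 7 lay between 4 and 11 (4 without PI103+PD0325901 replicate 2 or 4 or PI103+oxozeaenol replicate 1, 11 without PI103+oxozeaenol replicate 4 and with the batch number in the model), and the 4 between 1 and 5 (1 without PI103+oxozeaenol replicate 1 or 2 or without the filter on low counts, 2 without PI103+PD0325901 replicate 2 or 3 or PI103+oxozeaenol replicate 3), with 7 under the batch number. IDH1, the cytosolic isocitrate dehydrogenase, was 1 of the 2 higher genes and stood at 564, 910.4, 698 and 770.1 CPM with PI103+PD0325901 and 464, 543, 516 and 499.7 CPM with PI103+oxozeaenol (0.54, SE 0.11, edgeR adjusted p = 0.00057), whereas the mitochondrial subunit IDH3A was lower (-0.53). PDK1, the kinase that shuts off pyruvate dehydrogenase, was lower at 9.03, 9.78, 9.68 and 11.3 against 14.6, 17.1, 14.2 and 14.8 CPM (-0.61, SE 0.09), as was DLST of the 2-oxoglutarate dehydrogenase complex (-0.41). CYC1 of complex III (-0.46, edgeR adjusted p = 0.068 without replicate 2 of both) and NDUFV1 of complex I (-0.24) were lower, but NDUFV1 lost its call without PI103+PD0325901 replicate 3 or 4 or PI103+oxozeaenol replicate 1 or 2 (0.053 to 0.075) and without the filter on low counts (0.073), and ATP5B of the ATP synthase did not pass the test (-0.06). The lipid lists also lay below the share of all genes, with 21.9% of the cholesterol list and 20.7% of the fatty acid list called. In cholesterol synthesis and uptake 5 of 32 genes were lower (2 without replicate 2 of both) and 2 were higher, with a median of 0.01. The 2 became 1 without PI103+PD0325901 replicate 2 or 4 or PI103+oxozeaenol replicate 1, 2 or 3 and without the filter on low counts. EBP, a sterol isomerase, was lower (-0.38), whereas the sterol reductase TM7SF2 was higher (0.56, 0.37 without replicate 2 of both), and HMGCS1 (0.15) did not pass the test. In fatty acid synthesis and activation 2 of 29 were lower: ELOVL6, which elongates palmitate, at 28.6, 22.2, 32.9 and 33.9 against 54, 62.6, 59.1 and 54.8 CPM (-0.97, SE 0.11), and CPT1A, which carries fatty acids into mitochondria (-0.58). Of the 4 higher genes, 1 was called without PI103+PD0325901 replicate 2 and 2 without PI103+oxozeaenol replicate 2 or 4. The acyl-CoA synthetase ACSL5 had the largest difference among them (0.83), and FASN (-0.15) and SCD (-0.15) did not pass the test.

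Most interferon-stimulated and antigen presentation genes were higher with PI103+PD0325901. Of 35 tested, 23 were higher and none was lower, against 14.3% of all genes, with a median of 0.39, and 17 were higher without replicate 2 of both combinations. OAS1, which senses double-stranded RNA, stood at 21, 20.01, 17.1 and 17.7 CPM with PI103+PD0325901 and 8.07, 7.9, 8.68 and 7.33 CPM with PI103+oxozeaenol (1.25, SE 0.10, edgeR adjusted p = 5e-09). IRF9, the DNA-binding subunit of the interferon-activated complex ISGF3, stood at 50.3, 60.6, 44.5 and 50.3 against 28.7, 22.1, 25.9 and 26.3 CPM (1.00, SE 0.10), and IFI27 at 18.4, 24.8, 17.2 and 18.2 against 9.38, 7.75, 9.29 and 9.54 CPM (1.13, SE 0.11). None of the 3 had overlapping groups. B2M, the light chain of the class I antigen complex, did not pass the test (0.24). Both combinations stood above the control they share, with 33 of the 35 members higher than control with PI103+PD0325901 and 32 with PI103+oxozeaenol, against 32.2% and 27.7% of all genes.

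Targets of TGF-beta and BMP signalling, a pathway in which TAK1 can act beside the SMAD factors, were higher with PI103+PD0325901 where they differed. Of 16 tested, 9 were higher and none was lower, with a median of 0.45, and 8 were higher without replicate 2 of both combinations. Besides CDKN2B, ID3, an inhibitor of helix-loop-helix factors, stood at 87.6, 76, 84.6 and 72.4 CPM with PI103+PD0325901 and 51.7, 40.7, 50.2 and 38.8 CPM with PI103+oxozeaenol (0.82, SE 0.13, edgeR adjusted p = 3.3e-05), and BAMBI, a decoy receptor of the pathway, at 274, 239, 247 and 258 against 179.5, 168, 155 and 156 CPM (0.63, SE 0.09). Both genes had separate groups. Of 15 epithelial-mesenchymal transition genes 4 were higher and none was lower (26.7%, against 14.3% of all genes that were higher and 29.9% that differed). They included the integrin subunit ITGA5 (0.73), the sparsely expressed N-cadherin CDH2 (0.521 to 0.79 against 0.0644 to 0.217 CPM) and the epithelial E-cadherin CDH1 (0.55), so that both cadherins were higher. MMP14, a membrane-bound collagenase, stood at 608, 625, 504 and 488 against 371, 312, 326 and 323 CPM (0.74, SE 0.10), MMP2 was higher at 0.364 to 1.55 against 0.0379 to 0.125 CPM, and PLAT, the tissue plasminogen activator, was lower (-1.49).

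Among FOXO targets and feedback genes of PI3K signalling, the pathway that both combinations inhibit with the same drug, 6 of 21 were higher with PI103+PD0325901 and 2 were lower (none without PI103+PD0325901 replicate 2 or PI103+oxozeaenol replicate 2), with a median of 0.11. FOXO4, itself a FOXO factor, stood at 7.95, 9.63, 5.67 and 5.52 CPM with PI103+PD0325901 and 3.21, 2.92, 3.06 and 2.99 CPM with PI103+oxozeaenol (1.24, SE 0.19, edgeR adjusted p = 2.6e-05). PIK3IP1, which inhibits the catalytic subunit of PI3K, was higher at a low level (0.564 to 1.58 against 0.151 to 0.267 CPM, 2.02), and the atypical cyclin CCNG2 was higher at 48.7 to 59.7 against 31.4 to 38.3 CPM (0.64). SESN1 (0.35), the catalytic subunit PIK3CA (0.35) and the receptor ERBB2 (0.23) differed less, and IRS1, the insulin receptor substrate, was lower (-0.36). The call of ERBB2 was lost without PI103+PD0325901 replicate 1 or 3 or PI103+oxozeaenol replicate 2 or 4 (edgeR adjusted p up to 0.14) and in a fit of the 8 libraries alone (0.053). The call of IRS1 was lost without PI103+PD0325901 replicate 2 or PI103+oxozeaenol replicate 2 or 3 (up to 0.12), and PIK3CA lost its call without PI103+PD0325901 replicate 1 (edgeR adjusted p = 0.058). ERBB3 (0.09), a receptor that is known to rise under PI3K inhibition, did not pass the test.

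In the BCL2 family, 1 of 14 members was higher with PI103+PD0325901 and 3 were lower (1 without replicate 2 of both). That share of 28.6% called is near the 29.9% of all genes. The higher one was BMF, a BH3-only activator of apoptosis, at 87, 105, 77.3 and 74.3 CPM with PI103+PD0325901 and 24.4, 19.1, 24.7 and 23.9 CPM with PI103+oxozeaenol (1.90, SE 0.17, edgeR adjusted p = 1.6e-08). Its groups were far apart, with a control mean of 11.4 ± 1.68 CPM and 50.6 ± 3.07 CPM with PI103 alone (SD, n = 4 each). BCL2L1, which encodes the survival protein BCL-XL, was lower at 430.2, 393, 388 and 369 against 583, 542, 570.3 and 499 CPM (-0.47, SE 0.09), as was PMAIP1 (NOXA, -0.85), whose call was lost without replicate 2 of both (edgeR adjusted p = 0.13). BCL2L11 (BIM, 0.21) and MCL1 (0.06) did not pass the test.

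Lysosome and autophagy genes were more often higher than lower with PI103+PD0325901, 16 against 3 of 53, with a median of 0.15, and the 16 became 8 without PI103+PD0325901 replicate 2, 10 and 9 without PI103+oxozeaenol replicates 2 and 4, and 7 without replicate 2 of both. WIPI1, which binds the forming autophagosome, stood at 14.4, 27, 15.6 and 14.5 CPM with PI103+PD0325901 and 6.82, 6.76, 7.51 and 6.8 CPM with PI103+oxozeaenol (1.36, SE 0.20, edgeR adjusted p = 3.4e-05). MITF, a relative of the lysosomal regulator TFEB (0.87), and GABARAPL1, which coats autophagosomes (0.45), were higher, and LAMP1 did not pass the test (0.20, edgeR adjusted p = 0.07, and 0.025 with the batch number in the model; 0.042 with DESeq2). Of 23 endoplasmic reticulum chaperones and quality control genes 8 were higher and none was lower, SEL1L (0.53) and DNAJB9 (0.64) among them, but 1 was higher without PI103+PD0325901 replicate 2, 4 and 5 without PI103+oxozeaenol replicates 2 and 4, and DNAJB9 lost its call without either replicate 2 library (edgeR adjusted p = 0.10 and 0.060). HSP90B1 did not pass the test (0.21). Heat shock proteins of the cytosol and mitochondria went the other way, 9 of 16 lower and 1 higher (none without PI103+PD0325901 replicate 2 or PI103+oxozeaenol replicate 3), with HSPD1 at 560.4, 431, 663 and 577 against 853, 1024, 936 and 774 CPM (-0.68, SE 0.14) and HSPA9 also lower (-0.53), yet the 9 became 3 without PI103+PD0325901 replicate 2 and 1 without replicate 2 of both, when HSPA9 had an edgeR adjusted p of 0.0502. Of 21 genes of the NRF2 and glutathione list 2 were higher (1 in most fits that left out 1 library) and 4 lower (2 without replicate 2 of both). Together they make 28.6% called, against 29.9% of all genes. HMOX1, haem oxygenase, stood at 135, 187, 124 and 120.3 against 43.8, 48.3, 43.2 and 43.8 CPM (1.66, SE 0.12, edgeR adjusted p = 4.9e-10), while TXNRD1, thioredoxin reductase and like HMOX1 a target of NRF2, was lower at 129, 117, 128 and 123 against 175, 191, 177 and 152 CPM (-0.48, SE 0.09).

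The largest differences toward PI103+PD0325901 were spread over genes of many functions. NAV2, a microtubule-associated protein of axon growth, had the smallest adjusted p of the genes named, at 135, 103, 125 and 128 CPM with PI103+PD0325901 and 20.5, 17.7, 17.9 and 20.9 CPM with PI103+oxozeaenol (2.67, SE 0.14, edgeR adjusted p = 6.2e-13). SYNPO, the actin-binding protein synaptopodin, stood at 352, 336, 304 and 254 against 88.3, 68.1, 80.4 and 64.3 CPM (2.05, SE 0.13), and SIPA1L2, an activator of Rap GTPase activity, at 100.1, 95.5, 81.9 and 91.5 against 18.5, 20.5, 17.4 and 19.9 CPM (2.28, SE 0.17). In these 3 genes the 4 libraries of each group lay close together, replicate 2 included. C6orf222 had the largest difference in this direction among the genes named, 3.999 (SE 0.45), at 6.26, 12.4, 5.51 and 5.94 against 0.3996, 0.284, 0.605 and 0.606 CPM. CYMP, the pseudogene of chymosin, stood at 7.31, 32.2, 8.03 and 9.64 against 1.11, 1.32, 1.12 and 2.14 CPM (3.34), LOC153469 at 12.9 to 20.3 against 1.42 to 2.66 CPM (3.04), and the kinase ALPK2 at 4.22 to 7.79 against 0.53 to 1.17 CPM (2.80). MPP1, a scaffold protein of the membrane (2.71), NEURL3, a ubiquitin ligase (2.59), BCAS1 (2.45), the adhesion receptor GPR124 (2.39) and SLC5A12, a sodium-coupled lactate transporter (2.34), follow in size. KDM4B, a histone demethylase, was higher by 1.09, while CTNNAL1 (-0.78) and PM20D2 (-0.96) were lower.

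Markers of gastric and intestinal identity moved in both directions, with 5 of 22 higher with PI103+PD0325901 (3 without PI103+PD0325901 replicate 2) and 4 lower. GATA6, an endodermal transcription factor, stood at 172, 137, 138 and 138 CPM with PI103+PD0325901 and 106, 85.6, 87.3 and 89.9 CPM with PI103+oxozeaenol (0.66, SE 0.10, edgeR adjusted p = 2.9e-05). SOX2, a factor of foregut and stomach, went the other way at 7.01, 5.38, 8.001 and 10.8 against 18.1, 25.8, 18.5 and 21.9 CPM (-1.44, SE 0.19), as did REG4, a secreted lectin (7.8 to 9.43 against 19.4 to 22.3 CPM, -1.26). APOA1, an apolipoprotein made in the intestine (1.91), and the intestinal cadherin CDH17 (0.38, 0.059 without replicate 2 of both in edgeR's test) were higher. Among Wnt targets 3 of 15 were higher and 4 lower: DKK1, a secreted Wnt inhibitor, stood at 1353, 1466, 1427 and 1758 against 869, 929, 877 and 973 CPM (0.72, SE 0.10), LGR5, a stem cell receptor, was higher by 0.36, ZNRF3, which removes Wnt receptors from the surface, was lower (-0.93), and AXIN2 did not pass the test (0.05).

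ANKRD1, a target of YAP, stood at 70.3, 39, 84.2 and 77.1 CPM with PI103+PD0325901 and 208, 216, 204 and 193 CPM with PI103+oxozeaenol (-1.60, SE 0.31, edgeR adjusted p = 0.00054), and 5 of 17 genes of its list were lower (2 without replicate 2 of both) and 1 was higher. Eph receptors and ephrins were split, with 5 of 14 higher, among them EPHA1 (0.63) and EFNA3 (0.98), and 3 lower. Of 21 p53 targets 5 were higher (3 without PI103+oxozeaenol replicate 4) and 6 lower (3 without PI103+oxozeaenol replicate 1), with TP53INP1, a mediator of stress-induced autophagy and death, higher (0.74) and the nuclease AEN lower (-0.72). Hypoxia targets gave 4 of 12 higher, such as the peptide hormone ADM (1.05 to 3.34 against 0.32 to 0.632 CPM) and NDRG1 (0.65), and 2 lower, both also counted above (SLC2A1 and PDK1). Of 12 complement genes 2 were higher and 1 lower (25%, against 29.9% of all genes). CFB, factor B of the alternative pathway, stood at 18.8, 33.3, 16 and 14.7 against 11.2, 7.46, 9.22 and 7.4 CPM (1.23, SE 0.22) and the inhibitor CD55 was higher by 0.31, a call lost without PI103+PD0325901 replicate 2 or PI103+oxozeaenol replicate 2, 3 or 4 (edgeR adjusted p from 0.051 to 0.057). The lower gene was CLU, the secreted chaperone clusterin (-0.33), whose groups overlapped and whose call was lost without PI103+PD0325901 replicate 3 or 4 or PI103+oxozeaenol replicate 1 (edgeR adjusted p up to 0.17), in a fit of the 8 libraries alone (0.057) and without the filter on low counts (0.060). Of 8 targets of the aryl hydrocarbon receptor 1 was higher (12.5%, against 14.3% of all genes), and 3 with the batch number in the model. The 1 gene, CYP1A1, stood at 6.03, 29.4, 5.82 and 6.67 against 3.003, 5.29, 3.52 and 4.83 CPM (1.53). Without PI103+PD0325901 replicate 2 its difference was 0.57 with an edgeR adjusted p of 0.17. PDZK1IP1, a membrane-associated protein, stood at 12.7, 46.7, 11.2 and 11.4 against 7.48, 5.44, 6.87 and 7.59 CPM, where replicate 2 of PI103+PD0325901 was the highest: the difference was 1.58, 0.78 without that library, and 0.69 without replicate 2 of both (edgeR adjusted p = 0.098). Of 13 sarcomere genes 2 were higher (1 without replicate 2 of both) and 3 lower. MYH4, a skeletal myosin with 41.5 ± 8.63 CPM in control cells (SD, n = 4), had 0.0202 to 0.0672 CPM with PI103+PD0325901 and 0.516 to 2.47 CPM with PI103+oxozeaenol, the giant sarcomere protein TTN was lower (-1.54), the atrial light chain MYL7 was higher (1.36) and TNNT2, cardiac troponin T, did not pass the test (0.05).

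The same contrast without PI103 is given by the single agents, PD0325901 alone against oxozeaenol alone at the full concentrations, in 8 libraries that are not among those of the combinations. There 3976 of 13947 genes differed (28.5%). Of the 4170 genes that differed between the combinations, 2618 (62.8%) also differed between the single agents, which is 65.8% of the single-agent calls, and all 2618 had the same sign. Taken over the 13947 genes, which do not count as independent samples, the differences had a Pearson correlation of 0.76 and a Spearman correlation of 0.72. The MEK-ERK list had 18 lower and 1 higher member in either contrast, with ETV4 at -3.52 and DUSP6 at -2.64 between the single agents, and all 37 replication genes, RPA3 included, were lower with PD0325901 than with oxozeaenol. Other lists had unlike counts in the contrasts, but no list was tested for a change. ATF4 targets had 13 lower between the combinations (median -0.53, 8 lower without replicate 2 of both), and 2 lower and 1 higher between the single agents (median -0.08). Cytosolic aminoacyl-tRNA synthetases had 8 lower (1 without replicate 2 of both) against 1 lower and 2 higher. Glycolysis and glucose uptake had 7 lower and 5 higher (2 and 3 without replicate 2 of both) against 2 lower and 6 higher. No member of these lists passed the test of a change that follows.

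Whether a gene's difference changed from the single agents to the combinations was tested as the difference between both contrasts. The combinations held PI103 and also each partner drug at 50% of its single-agent concentration. The presence of PI103 and the lower concentration therefore cannot be told apart in this test. The test passed for 2 of 13947 genes (0.0143%), 599 had an unadjusted p under 0.05, and both differences were smaller in the combinations. NLRP7, a NOD-like receptor, stood at 21.5, 24.7, 21.7 and 20.2 CPM with PI103+PD0325901 and 3.56, 4.21, 4.25 and 3.67 CPM with PI103+oxozeaenol (2.49, SE 0.15), while the single agents gave 33.4 ± 8.65 and 2.51 ± 0.473 CPM (SD, n = 4 each; 3.75). The change was -1.26 (SE 0.20, edgeR adjusted p = 0.0095). DFNA5, the pore-forming protein gasdermin E, was named after its values were seen: it stood at 2.37, 4.84, 1.75 and 2.14 against 1.12, 0.534, 0.409 and 0.549 CPM in the combinations (2.05) and at 3.71 ± 1.14 against 0.0759 ± 0.0187 CPM in the single agents (5.57), a change of -3.51 (SE 0.53, edgeR adjusted p = 0.0059). DESeq2 called 7 such genes and a fit with the batch number 4. REG4, with -1.26 between the combinations and -0.26 between the single agents (edgeR adjusted p = 0.061 for the change), and LOC153469, with 3.04 and 4.49 (0.074), did not pass. Both passed with the batch number in the model, without the filter on low counts and with DESeq2. LOC153469 also passed without PI103+PD0325901 replicate 2, PI103+oxozeaenol replicate 4 or oxozeaenol replicate 3, REG4 without PD0325901 replicate 1 or 2, and ID3 without oxozeaenol replicate 3. ETV4, with differences of -4.996 and -3.52, had an edgeR adjusted p of 0.87 for the change.

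**Figure D5:**
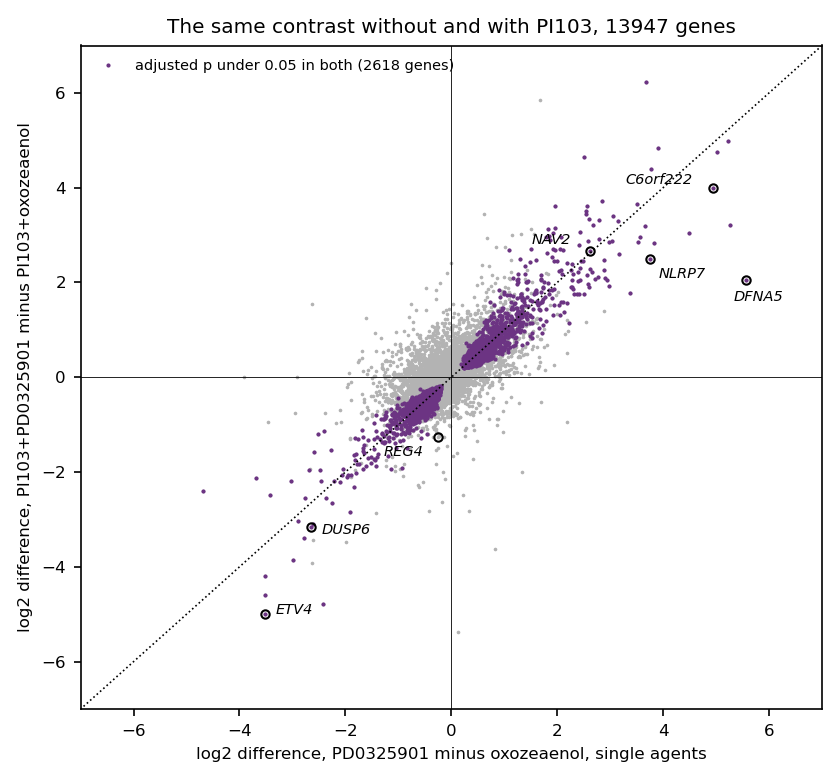
Log2 difference of PD0325901 over oxozeaenol for each gene between the single agents (horizontal) and between the combinations with PI103 (vertical). Purple points passed the test in both contrasts and grey points did not, and the dotted line marks equal differences: no purple point lies in the upper left or lower right corner area, and DFNA5 and NLRP7, the 2 genes whose difference changed, lie below the line.

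Against the control, which both combinations share, the 4170 genes can be placed by where each combination stood. Both combinations were above control for 916 of them, 770 of these higher with PI103+PD0325901, and both were below control for 893, 775 of these lower with PI103+PD0325901. The combinations lay on opposite sides of control for 97 genes, 1370 differed from control only with PI103+PD0325901 by the same threshold, 636 only with PI103+oxozeaenol, and 258 with neither. MEK-ERK targets lay mostly below control with either combination, 27 of 31 with PI103+PD0325901 and 24 with PI103+oxozeaenol. DUSP6, for instance, differed from control by -5.08 and -1.91, ODC1 by -1.23 and -0.34, and CDKN2B by 0.34 and -1.44. Because the control libraries are the same in both, these values are set side by side and were not tested against each other beyond the direct comparison above.

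Transcripts of the inhibited kinases themselves and of their subunits and partners differed about as often as genes in general. Of 36 tested, 4 were higher with PI103+PD0325901 and 6 were lower, 27.8% against 29.9% of all genes, and the 6 became 2 or 3 without PI103+PD0325901 replicate 2 or 4 or PI103+oxozeaenol replicate 1, 2 or 3. The higher genes with the smallest adjusted p were PI3K subunits: PIK3R3, a regulatory subunit, stood at 5.49, 8.57, 4.57 and 5.96 CPM with PI103+PD0325901 and 2.9, 2.69, 2.42 and 2.71 CPM with PI103+oxozeaenol (1.19, SE 0.22, edgeR adjusted p = 0.0002). The catalytic subunit PIK3CD stood at 6.67, 8.23, 5.11 and 4.04 against 3.63, 2.91, 3.88 and 2.61 CPM (0.88, SE 0.20). MAPK9, a JNK kinase, was lower (-0.30).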

How the data were processed

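RNA from AGS cells was sequenced in 24 libraries made with a stranded Illumina mRNA kit from 0.8 µg of total RNA, per the labels' protocols. The authors deposited 1 table of whole-number counts per gene symbol, and GRCh38 is the build in the submitters' processing notes. The aligner, counter and annotation are not given in the sources used here. The 5 closing tally lines of each column were dropped: reads outside any gene (4.24% to 8.57%), ambiguous reads (1.57% to 2.01%), reads aligned to several places (4.64% to 6.06%) and 2 lines at 0. Groups were taken from sample titles, because the treatment field of later replicates numbers the compounds upward. The members, gene lists and rules were chosen with earlier results of these data known.

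Counts of all 24 libraries were fitted together in edgeR 4.0.16 (R 4.3.3) with TMM scaling, filterByExpr, glmQLFit (robust) and glmQLFTest, two-sided, with Benjamini-Hochberg adjustment over the 13947 genes kept of 23368 and a threshold of 0.05. The kept genes held 99.989% of the counts. The 24 libraries held between 3.81e+07 and 8.42e+07 counts in genes. The fit was tried on counts simulated from its own means and spread. Those counts held no library that stood apart as PI103+PD0325901 replicate 2 did, so they cannot show how the fit deals with one. Levels are CPM of the TMM-scaled library, except those of the cell type markers, which are CPM of the unscaled library.

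The labels call the replicate number a batch, so it pairs the libraries. Deviations from the group means correlated by 0.099 on average between same-numbered libraries of the combinations (4 pairs, -0.082 to 0.24) and by -0.033 between differently numbered ones (12 pairs).

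Genes were named by rule: the 12 largest differences in each direction among called genes with the same sign in 4 batches and a mean of at least 5 CPM in a combination, the 6 with the smallest adjusted p in each direction at a mean of at least 50 CPM, members of the MEK-ERK, EGFR ligand, TAK1-NF-kB and FOXO lists, and up to 3 called members in each direction and 2 abundant uncalled ones of each other list. The 43 lists held 1118 entries, of which 1011 were tested, 105 fell below the filter on low counts and 2 were not in the table, and 43 were matched under an older symbol. AREG and IRS2 were listed at 0 in every library. Promoter sequences came from the RefSeq table of GRCh38.p14 and gene overlaps from GENCODE release 29. Alternatives were the batch number as a block, the 8 libraries alone, DESeq2's size factors, DESeq2 1.42.0, no filter on low counts, a minimum change of 1 log2 unit (glmTreat) and leaving out each library. Some genes are not reported here.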

Additional observations from a re-analysis of the deposited data

Results flagged for a closer look

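Within the 4 libraries of a combination, the highest or lowest value of a named gene was set apart from the other 3 (a gap above Dixon's critical value) in 46 of 442 tests of a gene in a group, 10.4%. Chance sets apart about 1 in 20 groups. Of the 46 values, 27 came from PI103+PD0325901 replicate 2 and 13 from PI103+oxozeaenol replicate 2.

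In PI103+PD0325901 replicate 2, genes of replication, nucleotide synthesis and division were lowest: CDC6 at 85.5 CPM, POLD3 at 26.7 CPM, RRM2 at 118.6 CPM, TYMS at 151.7 CPM, PPAT at 29 CPM, RPIA at 13.4 CPM and KIF23 at 66.7 CPM. The same library was lowest for JAG1 (10.2 CPM), SPRY1 (8.60 CPM), MXD3 (6.22 CPM) and SLC38A2 (113.4 CPM). It was highest for the cell cycle inhibitors CDKN2B (126.1 CPM) and CDKN1C (13.6 CPM), for the MYC antagonists MXD1 (36 CPM) and MXD4 (73.6 CPM), and for WIPI1 (27.0 CPM), PIK3IP1 (1.58 CPM), ADAM17 (79.1 CPM) and IFI27 (24.8 CPM). It was also highest for BCAS1 (11.2 CPM), C6orf222 (12.4 CPM), CYMP (32.2 CPM), NEURL3 (13.7 CPM), SLC5A12 (8.60 CPM), TM7SF2 (102.2 CPM), PDZK1IP1 (46.7 CPM) and CYP1A1 (29.4 CPM).

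In PI103+oxozeaenol replicate 2, genes of amino acid supply and stress were highest: SLC7A11 at 51.3 CPM, MTHFD2 at 278.1 CPM, YARS at 143.4 CPM, EIF4EBP1 at 59.3 CPM, SLC38A1 at 263.3 CPM, INHBE at 2.32 CPM and TRIB3 at 0.284 CPM. ODC1 (332.4 CPM), HMOX1 (48.3 CPM), PHLDA1 (52.7 CPM) and CDH2 (0.217 CPM) were highest there too, and BMF (19.1 CPM) and IFI27 (7.75 CPM) were lowest. Single values stood apart in other libraries: GATA6 at 172.1 CPM in PI103+PD0325901 replicate 1, MET at 168 CPM in PI103+oxozeaenol replicate 1, WIPI1 at 7.51 CPM in PI103+oxozeaenol replicate 3, and PKM2 at 1297 CPM, TNFAIP2 at 36.7 CPM and TP53INP1 at 76.9 CPM in PI103+oxozeaenol replicate 4.

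The difference between PD0325901 and oxozeaenol changed from the single agents to the combinations for DFNA5, by -3.51 log2 units, and for NLRP7, by -1.26 log2 units. Both passed edgeR's quasi-likelihood test of the change itself (adjusted p = 0.0059 and 0.0095). The presence of PI103 and the 50% concentration of the partner drugs cannot be told apart here.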

How the results depend on the processing

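Replacing TMM by DESeq2's size factors (4170 genes), fitting the 8 libraries alone (4218), using DESeq2 (4482), dropping the filter on low counts (3742) or adding the batch number as a replicate block (5075, 2411 higher with PI103+PD0325901) kept the count of genes that differ within 1.5 times of 4170. Without the filter 54.5% of the calls were higher with PI103+PD0325901, against 47.8%. Leaving out 1 library gave 2702 to 3997 genes, 1232 to 1927 of them higher with PI103+PD0325901 and 1470 to 2197 higher with PI103+oxozeaenol, with the lowest counts without PI103+PD0325901 replicate 2. Without replicate 2 of both combinations, an alternative chosen after seeing the data, there were 1948 genes, 903 and 1045 in the respective directions. Tested against a minimum change of 1 log2 unit, 104 genes were called (74 and 30), and none for the change from single agents to combinations (0 genes). That last count of 2 was 4 with the replicate block, 4 without the filter, 7 with DESeq2 and 2 to 4 in fits leaving out 1 library, with 4 without oxozeaenol replicate 3. The causes were not tested. None of the 4170 genes that was also called under one of these alternatives changed sign there. Of the 221 genes named, 183 had the same call in every fit leaving out 1 library and also without replicate 2 of both combinations. Between the combinations, the replicate block changed no call among the named genes beyond the 6 described (ADAM10, ADAM17, DKC1, LAMP1, MKI67, TOP2A). For the change from single agents to combinations it added REG4 and LOC153469.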
